A study of Drosophila melanogaster with 4 samples.

Results

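dMi-2 regions on chromosome arm 3R outside the Hox gene complexes were described from ChIP-seq of whole Drosophila melanogaster embryos. Chromatin immunoprecipitation followed by sequencing (ChIP-seq) recovers the DNA that a protein is crosslinked to, and an enriched region is a stretch where this DNA exceeds that of the input chromatin. All libraries came from wild-type embryos of the strain Oregon-R aged 14 to 16 h, with 2 ChIP libraries (antibody Q4443 against dMi-2) and 2 input libraries, numbered replicate 1 and 2. The data used are 3 deposited lists of regions, 1 for each ChIP replicate and 1 combined list, with no read counts. Members were the regions of each list on 3R with a midpoint beyond the first 1 Mb, which lies on the centromere side, and outside 2480000 to 2830000 and 12480000 to 12810000, the intervals left out for the Antennapedia and bithorax complexes. This kept 26.2 Mb of the 27.9 Mb arm (FlyBase release 5). The members were 944 of 4213 regions in replicate 1, 1193 of 5359 in replicate 2 and 2046 of 9388 in the combined list. Of all 2178 combined-list regions on 3R, 90 fell in the first 1 Mb and 21 in each of the excluded intervals.

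dMi-2 is an ATP-dependent chromatin remodeller of the CHD family, which slides nucleosomes along DNA. It is a subunit of the NuRD complex, where it is joined to a histone deacetylase, and of the dMec complex, where it is joined to MEP-1. It is known for roles in repression of developmental genes, including genetic links to Polycomb repression of Hox genes, and it has also been found at actively transcribed genes such as heat-shock genes. A whole embryo mixes all cell types, so binding in few cells and weak binding in many cells cannot be told apart. The files carry no gene names, so regions are given by position.

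Called dMi-2 regions were spread over the whole kept length of 3R, from near the 1 Mb edge to the tip. Replicate 1 regions covered 2.18 Mb, or 8.33% of the kept sequence, at 36.0 regions per Mb. Replicate 2 regions covered 3.16 Mb, or 12.0%, at 45.5 per Mb. The combined list covered 5.60 Mb, or 21.3%, at 78.0 per Mb, which is 1 region per 12.8 kb of sequence. The first member of the combined list began at 1013776, and the last, at 27896528 to 27897570, ended 7.48 kb before the end of the arm. Side by side, the combined-list densities were 73.8 per Mb on 2L, 91.0 on 2R, 80.5 on 3L and 80.0 on X when 1 Mb was likewise left out at the centromere end. The covered shares there were 19.0%, 25.8%, 21.5% and 22.1%. No difference between arms was tested.

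Most 3R regions of the shorter replicate list were found again in the longer one. Of the 944 replicate 1 regions, 760 overlapped a replicate 2 region by at least 1 bp (80.5%, 95% exact binomial interval 77.8 to 83.0), against 80.0% of replicate 1 regions over all sequences. Of the 1193 replicate 2 regions, 748 overlapped a replicate 1 region (62.7%, interval 59.9 to 65.5), against 60.5% over all sequences. Both shares on 3R are thus near those of the whole lists. These intervals cover counting error only, and neighbouring regions are not independent. Measured in bases, 1.68 Mb lay in regions of both lists, or 76.8% of what replicate 1 covered and 53.1% of what replicate 2 covered.

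For pairs in which 1 region of each replicate overlapped the other and no further region, replicate 2 mostly drew the wider boundaries. Their centres lay close together, which the required overlap brings about in part. There were 617 such one-to-one pairs, with a median overlap of 1914 bp. Their midpoints lay a median of 273 bp apart, 75% of them within 568 bp and 90% within 904 bp, and in 286 pairs (46.4%) within 250 bp. The median width in these pairs was 2111 bp in replicate 1 and 2619 bp in replicate 2, and replicate 2 was the wider in 439 of 617 pairs (71.2%). In 258 pairs (41.8%) the replicate 1 region lay wholly inside the replicate 2 region, and in 68 pairs (11.0%) the reverse held. No pair had identical coordinates. The deposited score is the authors' own, with an unnamed scale, and is used here to rank regions within a list. Across the 617 pairs the scores of the replicates had a Spearman rho of 0.516 and the widths one of 0.536. These are descriptions across regions, which share the genome sequence and the calling method.

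**Figure D1:**
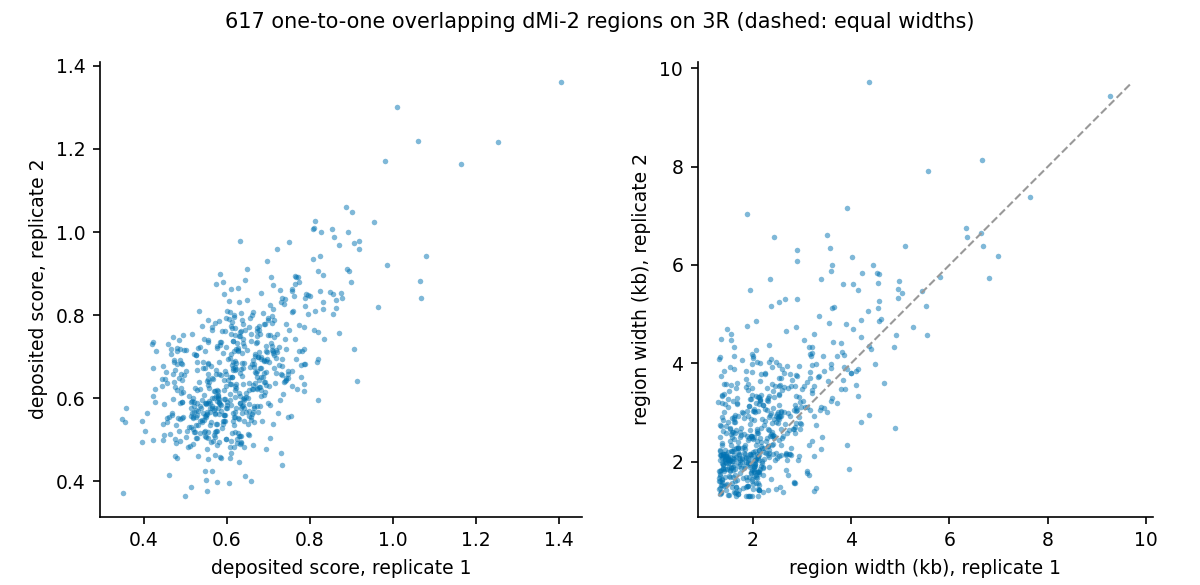
Deposited score (left) and width in kb (right) of 617 one-to-one overlapping 3R regions, replicate 1 on the x axis and replicate 2 on the y axis, 1 point per pair. In width, 439 of 617 points lie above the dashed line of equal widths, and the pair at the far upper right of the score panel, at 1.40 and 1.36, is the highest-scoring member of both lists.

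In the combined list, regions found in both replicates were the wider and higher-scoring ones, and regions found in neither were many, narrow and low-scoring. Nearly every replicate region on 3R had a counterpart there, 939 of 944 in replicate 1 (99.5%, against 99.3% over all sequences) and 1188 of 1193 in replicate 2 (99.6%, against 99.3%). Of the 2046 members, 678 overlapped both replicate lists (33.1%, interval 31.1 to 35.2), against 31.8% of the combined list over all sequences. A further 155 overlapped only replicate 1 (7.58%, against 7.71% over all sequences) and 392 only replicate 2 (19.2%, against 19.9%). The remaining 821 overlapped neither (40.1%, interval 38.0 to 42.3, against 40.6%). The 678 regions in both held 3.08 Mb, or 55.0% of the combined coverage on 3R, and the 821 in neither held 1.20 Mb, or 21.4%. Median widths were 3809 bp for regions in both (interquartile range 2946 to 5418 bp), 2203 bp for regions in replicate 2 alone, 2001 bp in replicate 1 alone and 1331 bp in neither (1093 to 1673 bp). The replicate lists hold no region under 1301 bp, and 394 of the 821 regions in neither were narrower than that. Median combined-list scores were 0.543 for regions in both, 0.418 in replicate 2 alone, 0.407 in replicate 1 alone and 0.403 in neither. The interquartile range of scores of regions in both, 0.480 to 0.616, did not overlap that of regions in neither, 0.362 to 0.434.

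**Figure D2:**
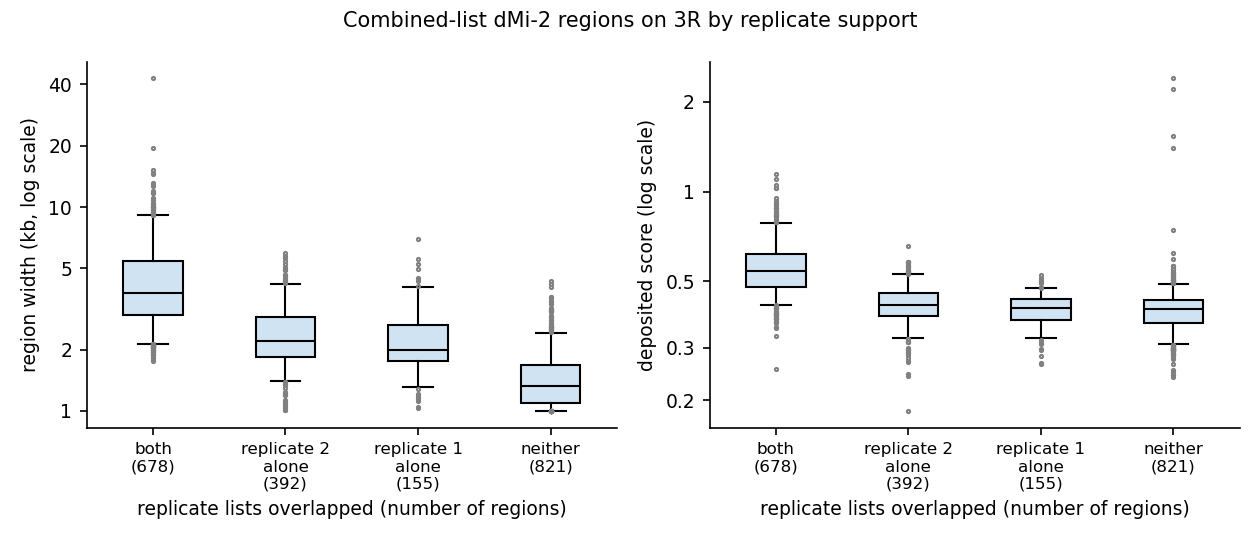
Width in kb (left) and deposited score (right) of the 2046 combined-list regions on 3R, both on log scales, by the replicate lists they overlap. Boxes are the interquartile range with the median, whiskers the 5th to 95th percentiles and dots regions beyond them. Regions in both have a median of 3809 bp and regions in neither 1331 bp, and the 4 highest scores belong to regions in neither.

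Replicate support rose steeply along the score order of the combined list. In the lowest quintile of members by score, 12 of 410 overlapped both replicates (2.93%, interval 1.52 to 5.06). The shares in the next 3 quintiles were 5.62%, 17.6% and 48.2%. In the highest quintile, with scores of 0.531 and above, 374 of 409 did (91.4%, interval 88.3 to 94.0). Median width moved with score, from 1619 bp in the lowest quintile to 4287 bp in the highest, and its part in this rise was not tested. Within the replicate lists the share found in the other replicate ran from 70.4% in the lowest to 96.3% in the highest quintile of replicate 1, and from 44.8% to 90.4% in replicate 2. Width again moved with support: the median was 2115 bp for shared and 1533 bp for unshared regions of replicate 1, and 2656 bp and 1743 bp for those of replicate 2.

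Regions without replicate support were not set far apart from supported ones. The nearest region in both replicates lay a median of 8.06 kb from regions in neither, 8.41 kb from those in replicate 1 alone and 6.13 kb from those in replicate 2 alone. For regions in both, the nearest other such region was 6.30 kb away. Of the 821 regions in neither, 316 (38.5%) lay within 5 kb of a region in both and 77 (9.38%) more than 50 kb from any. Of the 678 regions in both, 306 (45.1%) had another within 5 kb and 36 (5.31%) lay more than 50 kb from the next.

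The 15 strongest 3R regions found in both replicates were 2.5 to 9.7 kb wide, with 1 very broad exception of 42.9 kb. All were wider than the median combined-list member of 2078 bp. By combined-list score, the first was at 3296680 to 3302674 (6.0 kb, score 1.14), with scores of 1.16 in either replicate list (rank 4 among the 944 members of replicate 1 and rank 7 among the 1193 of replicate 2). Both replicates drew nearly the same boundaries there, 3296721 to 3302525 and 3296761 to 3302509, and its nearest neighbour was 13.0 kb away. The second was at 13442396 to 13451860 (9.5 kb, score 1.10) and ranked 2 in both replicates, which each overlapped it with 3 regions. The third lay at 13469874 to 13474532 (4.7 kb, score 1.05), with rank 10 in replicate 1 and rank 4 in replicate 2. Together with the ninth, at 13523980 to 13533652 (9.7 kb, score 0.913, ranks 11 and 15), these formed a group on 1 stretch of the arm. A second close pair was made up of 4466600 to 4469862 (3.3 kb, score 1.03, ranks 16 and 6) and 4491736 to 4499086 (7.4 kb, score 1.03, ranks 3 and 5).

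The other strong regions were spread along the arm. The sixth, 18221256 to 18224508, had a score of 0.954, with rank 6 in replicate 1 and rank 33 in replicate 2. The next were 16715398 to 16718486 (score 0.929, rank 29 against 20) and 11970724 to 11974234 (score 0.914, rank 19 against 14). They were followed by 22771842 to 22774682 (score 0.912, rank 9 against 55), 25506284 to 25509518 (score 0.904, rank 31 against 8) and 19425866 to 19428400 (score 0.889, rank 8 against 85). The one at 19425866 stood most apart among the 15, with no other region within 31.3 kb. The last 3 were 3963880 to 3967690 (score 0.883, rank 14 against 39), the broad 12029148 to 12072058 (score 0.880, rank 12 against 3) and 10562520 to 10570574 (score 0.878, rank 41 against 17). Just below them came 15614806 to 15617830 (score 0.875, ranks 18 and 101). Of the 15, 10 ranked among the first 15 of replicate 1, 9 among the first 15 of replicate 2 and 6 among the first 15 of both. Replicate 1 covered between 59.1% and 99.7% of each region (median 81.2%) and replicate 2 between 69.8% and 98.4% (median 91.4%).

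**Figure D3:**
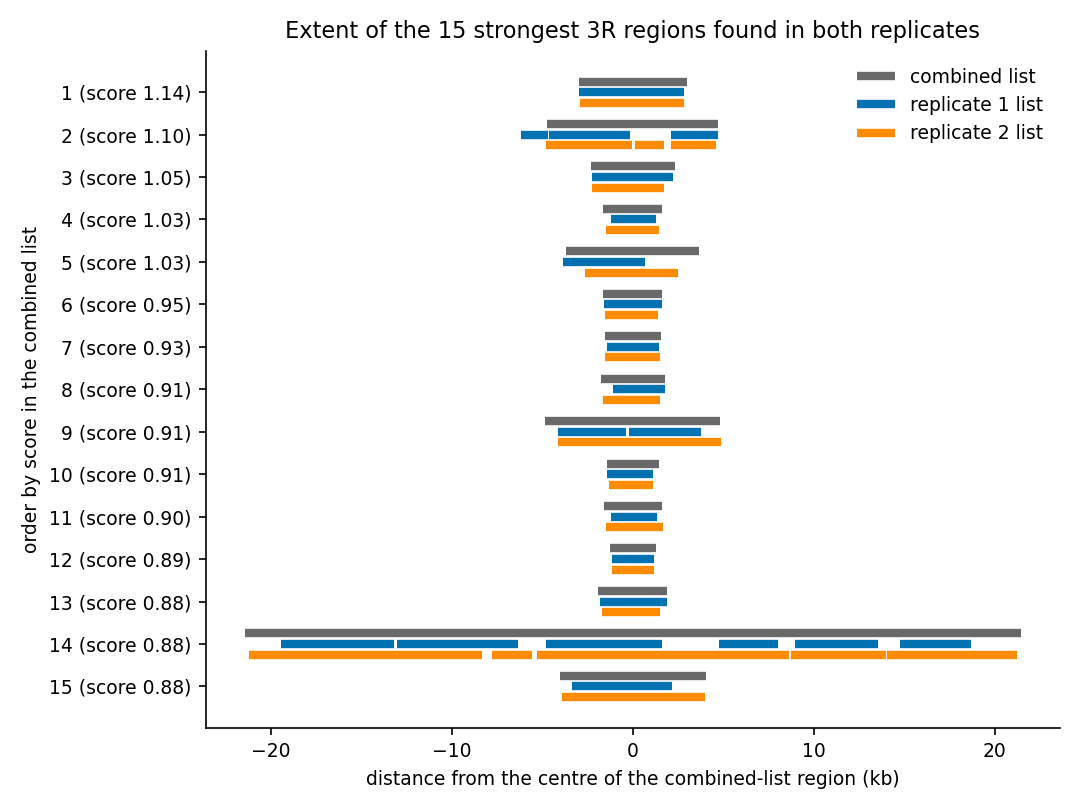
Extent of the 15 highest-scoring combined-list regions on 3R with support in both replicates, in kb from the centre of the combined-list region, with the replicate regions that overlap it drawn below it. In 12 of the 15 rows each replicate has 1 region, and the fourteenth spans 42.9 kb with 6 regions in replicate 1 and 5 in replicate 2.

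The highest-scoring place on 3R was the same in both replicates but not in the combined list. The highest-scoring member of replicate 1, at 19554703 to 19557192 (2.5 kb, score 1.40), and that of replicate 2, at 19554226 to 19557192 (3.0 kb, score 1.36), overlapped and shared their end coordinate. In the combined list this place was part of a region at 19554062 to 19564050 (10.0 kb, score 0.786), which ranked 40 among the 3R members. The rest of that region held 2 further regions of each replicate, with scores from 0.585 to 0.601. A similar case was 9622508 to 9625080 in replicate 1 (score 1.14, rank 5) and 9621559 to 9626989 in replicate 2 (score 1.03, rank 12), which lay in a 14.7-kb combined-list region of score 0.683 and rank 90. These places were singled out after their values were seen. Of the 10 highest-scoring members of each replicate, all 10 overlapped the other replicate, 5 were among its first 10, and 7 lay in the first 19 of the combined list, where the 15 regions above ended.

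The 4 highest scores of the combined list on 3R went to narrow regions found in neither replicate. They were at 1275096 to 1276096 (score 2.40), 3929580 to 3930580 (score 2.21), 15982376 to 15983376 (score 1.54) and 1272506 to 1273594 (score 1.40), and were 1.0 to 1.1 kb wide. Below them the order was almost wholly one of supported regions, with 95 of the first 100 members in both replicates and 5 in neither. No combined-list member was narrower than 1001 bp, so these 4 regions were at or near the minimum width. The scores 2.40272 and 1.40272 share their decimals with 0.40272, the median score of regions in neither. The scale of the score is not named, and the source of these high values was not tested.

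Regions found in 1 replicate alone were not among the top of either list. The 5 highest-scoring ones of each list were 1.4 to 4.5 kb wide and had ranks of 46 or below. In replicate 1 the highest was at 1580735 to 1582163 (1.4 kb, score 0.797, rank 72), 11.3 kb from the nearest replicate 2 region. It was followed by 24831887 to 24833440 (rank 114), 23394953 to 23396305 (rank 132), 1616641 to 1618790 (rank 149) and 17919278 to 17920830 (rank 169, 29.1 kb from replicate 2). In replicate 2 the highest was at 5517262 to 5519849 (2.6 kb, score 0.903, rank 46), followed by 2074354 to 2075813 (rank 64), 16975050 to 16976545 (rank 72), 7780983 to 7783695 (rank 106) and 18570189 to 18574709 (4.5 kb, rank 122). The last 2 of these lay only 0.258 kb and 1.49 kb from a replicate 1 region. Each of these 10 regions overlapped a region of the combined list.

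Most members were 1 to 5 kb wide, with a small number of broad domains. The interquartile range of combined-list widths was 1435 to 3280 bp around a median of 2078 bp, and 10% were above 5067 bp. In replicate 1 the median was 1988 bp with a maximum of 11.4 kb, and in replicate 2 it was 2140 bp with a maximum of 13.9 kb. Regions of 5 kb or more numbered 32 in replicate 1 (3.39%), 84 in replicate 2 (7.04%) and 213 in the combined list (10.4%), and regions of 10 kb or more numbered 1, 5 and 20. Wider regions had higher scores in every list, with a Spearman rho of 0.690 over the 944 members of replicate 1, 0.734 over the 1193 of replicate 2 and 0.554 over the 2046 of the combined list. Of the 678 members in both replicates, 531 (78.3%) corresponded to 1 region in each replicate, 96 were split into several regions in replicate 1 and 100 in replicate 2.

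The widest dMi-2 enrichment of 3R was a pair of adjoining regions at 12029148 to 12091532, before the start of the excluded bithorax interval at 12480000. The combined list gave it as 12029148 to 12072058 (42.9 kb) and 12072078 to 12091532 (19.5 kb), only 0.019 kb apart, which together spanned 62.4 kb. Replicate 1 covered 73.3% of this span and replicate 2 covered 94.7%. Within the first of them, replicate 1 had 6 regions of 3.3 to 6.7 kb with scores from 0.683 to 1.02, highest at 12031163 to 12037397 and 12059593 to 12064166 (1.01). Replicate 2 had 5 regions of 2.2 to 13.9 kb with scores from 0.675 to 1.30, highest at 12059345 to 12064603. The stretch from 12059593 to 12064166 was thus among the highest of the domain in both. In the second region the main part was 12072215 to 12083568 in replicate 1 (11.4 kb, score 0.982) and 12072082 to 12084140 in replicate 2 (12.1 kb, score 1.05), the widest member of replicate 1 and a near match of it.

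The other wide regions were 11.8 to 15.1 kb and mostly lower in score. They were at 26626818 to 26641946 (15.1 kb, score 0.624), 9618054 to 9632790 (14.7 kb, score 0.683), 18570120 to 18584588 (14.5 kb, score 0.577) and 5313086 to 5326202 (13.1 kb, score 0.429, rank 1082 of 2046). Further ones were 5691780 to 5704648 (12.9 kb), 20389162 to 20401860 (12.7 kb), 20405558 to 20417590 (12.0 kb) and 13535160 to 13546974 (11.8 kb). The pair on 20389162 to 20417590 was separated by 3.70 kb. Each of the 10 widest regions overlapped both replicates, against 33.1% of all members, and a wide region meets an overlap of 1 bp more easily. Replicate 1 covered 31.2% to 75.5% of each of these 10 and replicate 2 covered 53.7% to 96.4%.

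Along the arm, coverage by dMi-2 regions rose and fell 3.31-fold between bins of 1 Mb, with similar peaks in both replicates. Combined-list coverage of the 27 bins ran from 11.9% to 39.4% with a median of 21.5%, and the number of regions from 49 to 122 per Mb. The most covered bin was 5000001 to 6000000, with 122 regions and 39.4% coverage. It ranked first in replicate 1 (69 regions, 17.3%) and second in replicate 2 (86 regions, 23.9%). Next was 12000001 to 13000000, of which 670 kb were kept, with 36.8% (ranks 2 and 1). The 62.4-kb domain lies in this bin. With its regions removed and its sequence counted as uncovered, the coverage was 27.5% in the combined list. It was then 8.34% against 15.2% in replicate 1 and 16.3% against 25.1% in replicate 2. The third, 19000001 to 20000000 (115 regions, 32.2%), had rank 3 in both replicates. It was followed by 20000001 to 21000000 (25.5%, ranks 10 and 11) and 4000001 to 5000000 (25.3%, rank 4 in both).

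The least covered bins were scattered along the arm. They were 3000001 to 4000000 (51 regions, 11.9%), 23000001 to 24000000 (49 regions, 12.1%), 15000001 to 16000000 (58 regions, 13.8%), 8000001 to 9000000 (53 regions, 14.5%) and 21000001 to 22000000 (55 regions, 15.0%). The first of these was the least covered of the 27 bins in replicate 2 (5.95%) and ranked 26 in replicate 1 (5.33%), although it holds the region at 3296680, the first of the strongest regions above. Across the 27 bins, coverage in replicate 1 and replicate 2 had a Spearman rho of 0.891. The points share the genome sequence and the calling method. The share of combined-list members in both replicates ran from 24.0% to 43.4% between bins, with the highest share in the most covered bin. Over all bins this share had a rho of 0.147 with coverage. Median score was between 0.403 and 0.466 and median width between 1741 and 2549 bp in the bins.

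**Figure D4:**
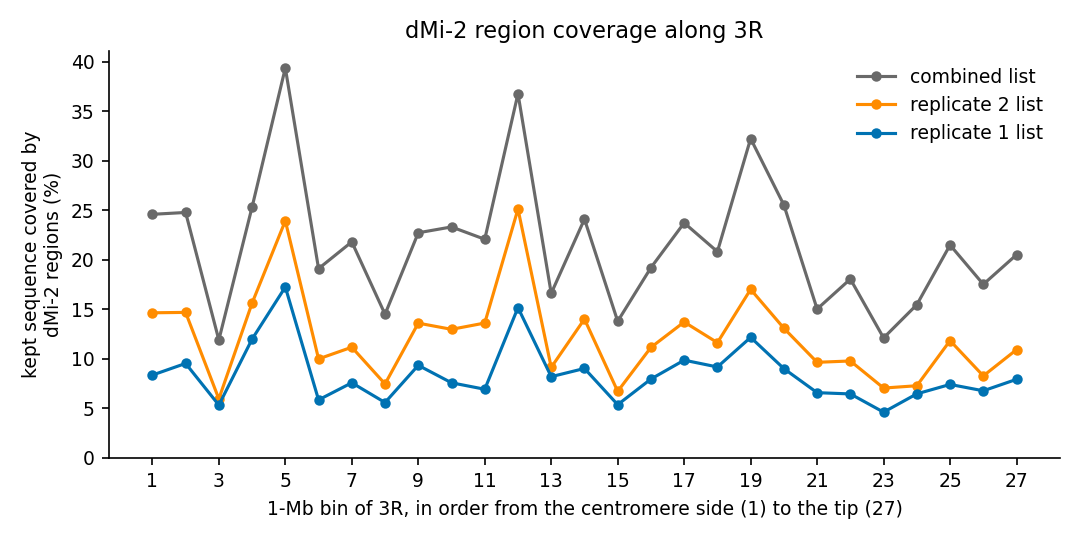
Share of kept sequence covered by dMi-2 regions (%, y axis) in 27 successive 1-Mb bins of 3R (x axis, from the centromere side to the tip), 1 line per list. The peaks in bins 5, 12 and 19 and the lows in bins 3, 15 and 23 appear in all 3 lists, with combined-list values from 11.9% to 39.4%.

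Most gaps between regions were of 5 kb or less in the combined list, though not in the replicate lists. Long empty stretches lay between groups. The median gap to the next region was 3.42 kb in the combined list, and 10% of gaps were above 24.1 kb. In the replicate lists the medians were 9.61 kb and 6.85 kb. The next region lay within 5 kb for 1215 of 2043 combined-list gaps (59.5%, interval 57.3 to 61.6), 312 of 941 in replicate 1 (33.2%) and 492 of 1190 in replicate 2 (41.3%). On 2L, 2R, 3L and X the combined-list shares were 55.6%, 62.3%, 56.7% and 60.4%. In 78 combined-list gaps the next region was less than 100 bp away, the smallest gap being 1 bp, so some neighbours are parts of 1 enriched stretch. Chained over gaps of at most 2 kb, the 2046 members formed 1299 groups, of which 853 were single regions and 34 held 5 or more.

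**Figure D5:**
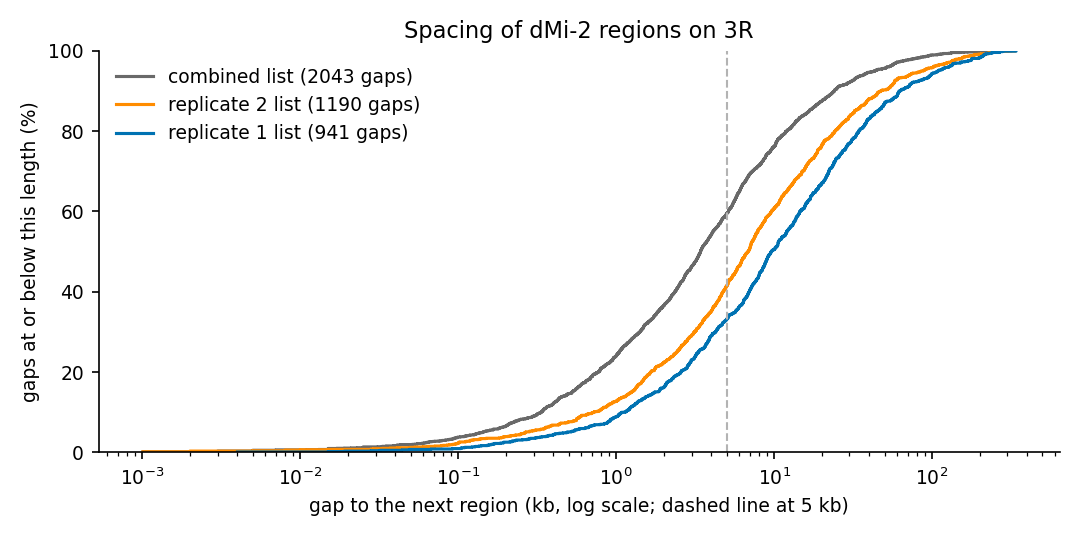
Cumulative share of gaps between neighbouring dMi-2 regions on 3R (%, y axis) against gap length in kb (x axis, log scale), 1 line per list. At the dashed line of 5 kb the combined list stands at 59.5%, replicate 2 at 41.3% and replicate 1 at 33.2% of gaps.

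The longest groups lay mostly in the densest bins, whose coverage they are themselves part of. After the 62.4-kb domain came 2218598 to 2259486 (40.9 kb, 9 regions, 84.4% covered), of which 3 regions were in both replicates and 3 in neither. It was followed by 5579346 to 5612366 (33.0 kb, 7 regions), 5397926 to 5429954 (32.0 kb, 9 regions) and 5691780 to 5722320 (30.5 kb, 5 regions, 90.5% covered), all in the most covered bin. By windows of 50 kb, the most covered was 12050001 to 12100000 (86.4%, first in both replicates). Then came 9800001 to 9850000 with 76.0% (rank 9 in replicate 1 and 2 in replicate 2 among 522 windows) and 5700001 to 5750000 with 68.4% (rank 15 against 3). The last of the 5 were 14800001 to 14850000 with 65.7% (rank 35 against 5) and 19700001 to 19750000 with 65.3% (rank 11 against 15). Median window coverage was 18.3%, and 37 of 522 windows (7.09%) were covered to at least 50%. The 52 most covered windows held 25.6% of the covered sequence.

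Long stretches of 3R held no dMi-2 region in the combined list. The longest ran over 318 kb from 23814499 to 24132313, followed by 12978513 to 13204413 (226 kb), 16159569 to 16368161 (209 kb) and 6784565 to 6981163 (197 kb). Then came 24167277 to 24360241 (193 kb), 10730811 to 10911785 (181 kb), 20176009 to 20343147 (167 kb) and 2311095 to 2469335 (158 kb). The stretches from 23814499 and from 24167277 are parted by only 35.0 kb of sequence. In 4 of the 8 neither replicate held a region, and in each of the other 4 a single region of 1 replicate overlapped the stretch. Such a region need not lie wholly inside. At the stretches from 23814499 and 2311095 it was a replicate 2 region that also overlapped the left flanking region and reached past its end. Of the 16 regions that flank these 8 stretches, 2 overlapped both replicates, where 33.1% of all combined-list members did. The scores of the 16 were between 0.314 and 0.539, around the median of 0.434 for all members. No difference was tested. The stretch from 12978513 lies beyond the second excluded interval, and the one from 2311095 ends 10.7 kb before the first. Gaps of 50 kb or more numbered 90 and made up 7.94 Mb, or 30.3% of the kept arm. The corresponding shares were 31.2% on 2L, 18.4% on 2R, 22.4% on 3L and 28.2% on X, with no test of the difference.

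Windows empty in 1 replicate were mostly empty in the other, and fewer were empty in the combined list. The combined list left 75 of the 522 windows of 50 kb empty (14.4%, interval 11.5 to 17.7), against 163 in replicate 1 (31.2%) and 145 in replicate 2 (27.8%). Both replicates were empty in 124 windows, replicate 1 alone in 39 and replicate 2 alone in 21. Of the 75 windows empty in the combined list, 74 were empty in both replicates too. This follows largely because nearly every replicate region overlapped a combined-list region. Of the 124 windows empty in both replicates, 50 held combined-list regions. The 75 empty windows fell into 53 runs, of which 40 were single windows and the longest had 5. Across the 522 windows, coverage in the replicates had a Spearman rho of 0.894. How well reads could be placed in these windows is unknown, and its part in the empty stretches was not tested.

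In the combined list, the nearest members at the edges of the excluded intervals scored higher than the nearest regions left out. At the 1 Mb edge the member scored lower, and the replicate lists did not all show this order. Nearest to the 1 Mb edge, the combined list had 1013776 to 1015500 inside (score 0.432) and 963440 to 964458 outside (score 0.463). At the first excluded interval the nearest members were 2471854 to 2473860 (score 0.403) and 2871802 to 2873332 (score 0.425), and the nearest regions inside that interval were 2482668 to 2484448 (score 0.334) and 2825654 to 2827854 (score 0.398). At the second they were 12475492 to 12482326 (score 0.497), which reaches past the boundary, and 12811338 to 12816012 (score 0.492), against 12486016 to 12487612 (score 0.371) and 12807466 to 12808814 (score 0.334). These 2 members were 6.8 and 4.7 kb wide and the regions left out 1.6 and 1.3 kb. In replicate 1 the members beside the first interval scored 0.691 and 0.810, against 0.427 and 0.482 for the nearest regions within it. In replicate 2 the members there scored 0.483 and 0.501, against 0.624 and 0.529. Beside the second interval the members scored 0.613 and 0.733 in replicate 1, against 0.532 and 0.618. In replicate 2 those members scored 0.681 and 0.439, against 0.466 and 0.504. At the 1 Mb edge the member scored 0.626 against 0.557 in replicate 1, and 0.557 against 0.620 in replicate 2.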

How the data were processed

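ChIP-seq of dMi-2 in wild-type embryos gave 3 deposited lists of enriched regions in GFF3 format, on FlyBase release 5 per the file headers. Per the submitters' processing notes, Bowtie 0.12.7 was used. Not given in the sources used here are the region caller, its settings, its minimum width and whether reads were pooled for the combined list. Each region carries a deposited score, made by the authors on a scale their files do not name. The lists hold no read counts, and their depth is unknown. Whether the replicates are separate collections of embryos is not stated in the labels, and their spread may be partly technical.

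The members and the rules for naming regions were chosen with earlier results of these data known. Positions are 1-based as deposited. Overlap means at least 1 bp and was checked against bedtools 2.31.1. Gaps across an excluded interval were left out. Windows of 50 kb start at position 1 of the arm and lie wholly in kept sequence. Bins of 1 Mb are scaled to their kept length. Named are the 15 highest-scoring combined-list members in both replicates, the 10 widest, the 5 highest of each replicate without overlap in the other, the 8 longest empty stretches, the 5 most and 5 least covered bins, the 5 most covered windows, the 5 longest groups with gaps of at most 2 kb, and the regions nearest the edges of the rule. Ranks are among the 3R members of a list. Shares have 95% exact binomial (Clopper-Pearson) intervals. No p-values were computed, since each replicate gives 1 list. The functions were tested on simulated data. The gene table at hand is on Release 6, so no region was assigned to a gene and no sequence was read. Alternatives were a reciprocal overlap of 50%, midpoints within 250 bp, regions at or above the median score, a minimum width of 1301 bp, merging below 1000 bp, windows shifted by 25 kb, all of 3R, and each replicate left out. Python 3.11.15 with numpy 2.4.6, pandas 2.3.3, scipy 1.17.1 and matplotlib 3.10.9 was used.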

Additional observations from a re-analysis of the deposited data

How the results depend on the processing

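No paired analysis was possible because the results come from no test, and each replicate gives 1 list. Of 35 alternative values, 10 stayed inside the reported interval, or within 1.5 times a count or density, and 25 moved. With all of 3R in place of the members, each of the 6 quantities stayed. The members are 2046 of the 2178 combined-list regions on 3R, so this alternative could move little. With a reciprocal overlap of 50%, 62.4% of replicate 1 regions and 49.4% of replicate 2 regions were shared, and 21.0% of combined-list regions were in both. With midpoints within 250 bp these shares were 31.9%, 25.2% and 10.0%. With all 3 lists cut to regions at or above their median score, these shares were 71.7%, 51.4% and 28.7%. Overlap was then counted only with the cut lists, so these values do not show less support for high-scoring regions. In the cut combined list the share with the next region within 5 kb was 34.6%, empty windows were 27.6% and the density was 35.9 per Mb. Without regions under 1301 bp, 41.6% of combined-list regions were in both, 52.3% had the next within 5 kb and 18.0% of windows were empty. With regions closer than 1000 bp merged, 46.6% had the next within 5 kb. With 1 replicate left out, the share of combined-list regions in the other was 40.7% to 52.3%. The lists of single replicates gave 33.2% to 41.3% for the next region within 5 kb, 27.8% to 31.2% for empty windows and 36.0 to 45.5 regions per Mb. Of the 15 strongest regions, 12 were still in both with a reciprocal overlap of 50% and 8 with midpoints within 250 bp, both chosen after the data had been seen. Depth is unknown, so a place without a region is one where none was called.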
